A study of Homo sapiens with 10 samples.

Results

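Unnamed intergenic loci lying close to annotated genes were followed in 2 fractions of HEK293 nuclei, the chromatin pellet (CPE) and the soluble nuclear extract (SNE). HEK293 is a line of human embryonic kidney cells grown on plastic. A member was a tested locus without a gene name of its own, in a region over 500 bases long that held no gene row, with the nearest region of a tested gene at most 10 kb away. The rule used position, name and test status, the last of which is tied to level, since loci at 0 in both groups, such as HBB, were not tested. It found 4237 members in 4098 regions, of 192931 tested loci in all, next to 2695 gene regions on 23 chromosomes. The SNE and CPE groups each had 3 samples, labelled as biological replicates of nuclei split after detergent lysis and sequenced as stranded total RNA. The series also holds 2 chromatin samples with DRB, an inhibitor of transcription elongation, and 2 mock-treated ones, which were not analysed here. Each locus had 1 FPKM value (fragments per kilobase, scaled to library size) for SNE and 1 for CPE, computed by the authors over the replicates, so no spread between replicates could be given and read depth was unknown. A call means a Cuffdiff q of at most 0.05 from the authors, and the sign of their log2 ratio, CPE over SNE, gave its direction.

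RNA that is still held by a transcribing polymerase, or tethered after its synthesis, pellets with chromatin, whereas spliced, polyadenylated messenger RNA comes free and is found with the soluble nuclear material. Transcription around a gene is not limited to the annotated unit. Many promoters fire in both directions, and RNA polymerase II commonly runs past the polyadenylation site, so short unannotated transcripts lie on either side of active genes. Non-coding RNAs next to active genes have been studied as chromatin-bound regulators of their neighbours. The table gives neither the strand of an unnamed locus nor its exons, so a member is described by its region and by its nearest gene.

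Among members placed on a side of their gene, the median ratio was lowest within 1 kb on the 5′ side, and the starts of 3 neighbours with a member within 1 kb on the 5′ side are shown for that reason. Sequences are from RefSeq on GRCh38.p14, matched by gene symbol, 250 bases before to 50 after the RefSeq start, 5′ to 3′ on the strand of the gene. Capitals mark CG dinucleotides. EFNA5, an ephrin that is a membrane-anchored ligand of Eph receptors (chr5:107670888-107671187, minus strand), and HADH, a mitochondrial enzyme of fatty acid oxidation (chr4:107989639-107989938, plus strand), have members of high CPE FPKM among those called higher in CPE next to starts above the median CG count of all promoters. SKIDA1 (chr10:21525633-21525932, minus strand) has one next to a start at or below that median.
EFNA5: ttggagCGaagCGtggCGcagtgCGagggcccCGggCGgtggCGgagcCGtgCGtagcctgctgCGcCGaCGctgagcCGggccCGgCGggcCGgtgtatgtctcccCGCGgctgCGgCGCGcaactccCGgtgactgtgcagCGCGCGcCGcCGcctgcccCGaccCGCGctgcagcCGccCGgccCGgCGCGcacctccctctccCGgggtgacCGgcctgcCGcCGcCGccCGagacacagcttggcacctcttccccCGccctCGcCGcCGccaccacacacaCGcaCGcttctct
HADH: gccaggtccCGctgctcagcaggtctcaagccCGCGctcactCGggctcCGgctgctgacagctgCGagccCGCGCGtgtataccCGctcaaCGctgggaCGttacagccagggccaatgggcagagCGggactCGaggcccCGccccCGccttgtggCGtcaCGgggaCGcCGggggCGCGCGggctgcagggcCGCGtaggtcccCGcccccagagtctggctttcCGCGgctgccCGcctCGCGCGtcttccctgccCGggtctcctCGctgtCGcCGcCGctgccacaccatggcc
SKIDA1: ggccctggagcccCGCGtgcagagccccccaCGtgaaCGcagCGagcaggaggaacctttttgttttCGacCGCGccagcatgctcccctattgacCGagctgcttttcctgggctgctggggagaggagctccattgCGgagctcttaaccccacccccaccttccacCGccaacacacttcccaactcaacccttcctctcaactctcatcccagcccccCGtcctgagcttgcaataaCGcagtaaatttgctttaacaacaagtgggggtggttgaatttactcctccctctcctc
These stretches hold 47, 37 and 13 CG dinucleotides, against a median of 14 over 27305 RefSeq promoters of the same length. The EFNA5 and HADH starts hold the GC box GGGCGG on either strand, which 44.6% of all promoters hold, and the SKIDA1 start does not. The member beside the EFNA5 start (hg19 chr5:107006746-107008075, 84 bases away) stood at 6.02 FPKM in SNE and 10.5 in CPE, 1.75-fold higher in CPE (q = 0.000706) per the authors' deposited table. That beside HADH (hg19 chr4:108910217-108910792, 77 bases away) had 0.256 in SNE and 2.24 in CPE, 8.73-fold higher in CPE (q = 0.00134) per the authors' deposited table. That beside SKIDA1 (hg19 chr10:21815232-21816075, 518 bases away) had 0.293 and 1.40, 4.80-fold higher in CPE (q = 0.00989) per the authors' deposited table. The genes themselves leaned the other way: EFNA5 had 18.1 in SNE and 6.91 in CPE without a call (q = 0.493) per the authors' deposited table. HADH, at 27.3 and 8.54, was higher in SNE by 3.19-fold (q = 0.00361) per the authors' deposited table. A second unnamed row in the region beside SKIDA1 had 0.220 and 0.771 without a call (q = 0.259) per the authors' deposited table. SKIDA1 itself, at 1.48 and 0.182, was higher in SNE by 8.15-fold (q = 0.000706) per the authors' deposited table.

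Most members had low levels, and 4068 of the 4237 were listed with the higher FPKM in the chromatin pellet. None was listed under 0.2 FPKM there, a limit described below that did not hold in SNE. Their median FPKM was 0.639 in CPE (quartiles 0.516 and 0.802) and 0.0886 in SNE (quartiles 0.0353 and 0.232). Of 4237 members, 2073 (48.9%) were called higher in CPE, 62 (1.46%) were called higher in SNE and 2102 were not called. Over all tested loci 8.73% were called higher in CPE and 4.30% higher in SNE, and over tested unnamed loci 9.45% and 0.630%. At a q of at most 0.01, 1397 members were called in CPE and 48 in SNE, against 6.12% and 3.48% of all tested loci. With an FPKM of at least 1 in either group 370 members were called in CPE, and the same rule called 5.69% of all tested loci. With an absolute log2 ratio of at least 1, 38 members were called in SNE, and that rule called 4.03% of all tested loci. The median log2 ratio was 2.67 (quartiles 1.52 and 3.89) over the 3971 members above 0 in both groups, against 3.05 over all tested loci, 3.21 over tested unnamed loci and -1.24 over tested gene loci. Members were thus called in CPE more often than tested unnamed loci at large, while their median ratio was the lower one. The share was not particular to members. Unnamed intergenic loci at 10 to 100 kb were called in CPE in 49.8% of cases and those over 100 kb away in 49.9%. Tested unnamed loci at large lay in regions with a median length of 184323 bases, against 874 for members. After centring on all tested loci, a shift of 3.05, the members' median became -0.37, and of the 2073 members called higher in CPE 915 had a ratio above 0 and 1158 below it, without a new test. Centring on tested gene loci, a shift of -1.24, left all 2073 above 0 and moved 41 of the 62 members called higher in SNE above 0.

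**Figure D1:**
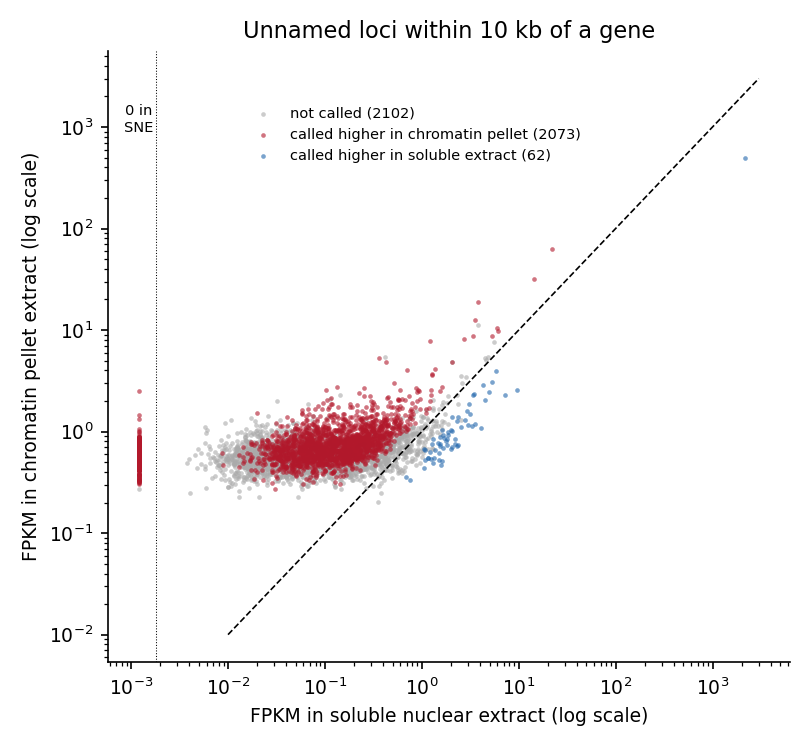
FPKM of each of the 4237 members in the soluble extract (horizontal, log scale) and the chromatin pellet (vertical, log scale), coloured by call, with members listed at 0 in SNE left of the dotted line and equality dashed. Chromatin levels form a narrow band with a lowest value of 0.204, whereas soluble levels run from 0 to 2184.

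The 2 fractions limited membership unequally. No member had a CPE FPKM under 0.2, and the lowest was 0.204, but 3024 (71.4%) were under 0.2 in SNE and 266 were listed at 0 there. Among tested gene loci 8.69% were under 0.2 in CPE and 7.80% in SNE, so this asymmetry belonged to the unnamed loci, of which only 34 of 174660 tested were under 0.2 in CPE. The sources used here do not say how the authors delimited unnamed loci. The part of that step in the direction of the calls was not tested. Few members were well measured in both fractions: 515 had a CPE FPKM of at least 1, 146 an SNE FPKM of at least 1, and 93 both. Of those 93, 22 were called higher in CPE, 26 in SNE and 45 in neither direction, with a median log2 ratio of 0.035. Tested unnamed loci at that level in both fractions (13451) had a median of 1.45.

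Calls went with the length of the region and with a value of 0 in SNE. In 3 length classes of nearly equal number, divided at 699 and 1161 bases, 25.2% of short, 45.4% of middle and 76.3% of long members were called higher in CPE. The median log2 ratio of these classes lay close together, at 2.65, 2.61 and 2.75. Of members with a log2 ratio of 1 to 2, 63.4% were called higher in CPE, but of the 309 with a ratio over 5 only 26 (8.41%) were. Of the 266 members listed at 0 in SNE, 255 (95.9%) were called, although their median region was shorter (632 bases) than that of the members with a ratio over 5 (930 bases). Members not called therefore include many with very large ratios, and their median ratio (2.94) was above that of the members called higher in CPE and above 0 in both groups (2.52).

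**Figure D2:**
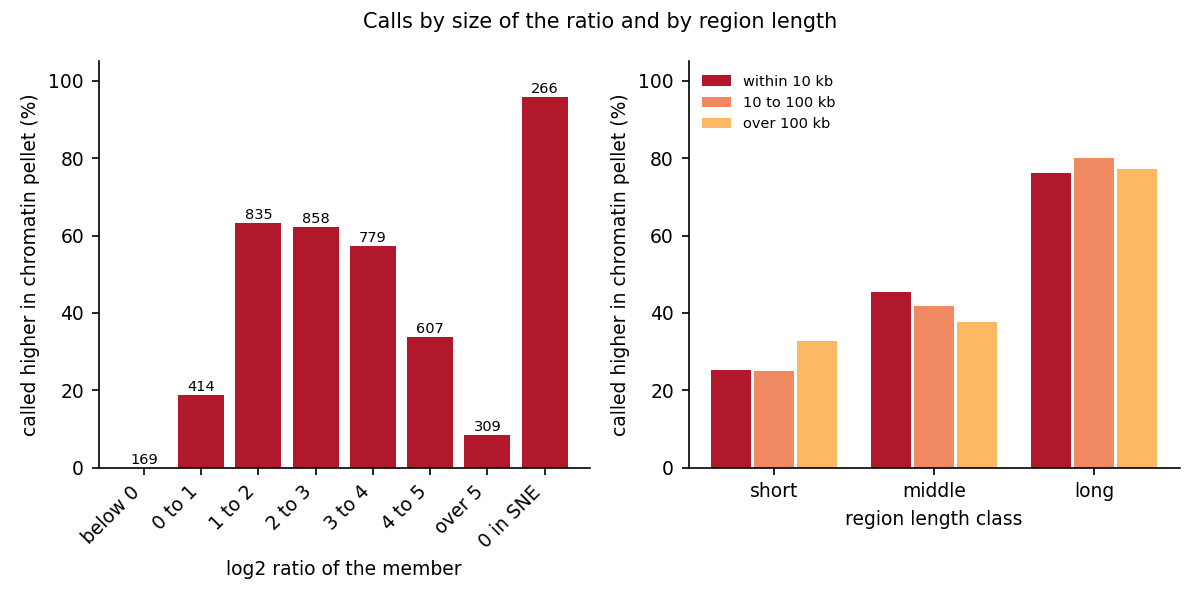
Share of members called higher in the chromatin pellet (percent) by log2 ratio, with the number of members above each bar (left), and by region length class for unnamed loci at 3 distances from a gene (right; classes divided at 699 and 1161 bases). The share falls to 8.41% at ratios over 5 and stands at 95.9% for members at 0 in SNE, and at each distance the longest class is called most often.

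Soluble levels were lower farther from the gene, except in the closest stretch. Members within 1 kb of a gene region had a median SNE FPKM of 0.133, those at 1 to 2 kb 0.0772, those at 2 to 5 kb 0.0680 and those at 5 to 10 kb 0.0632. Divided into 5 bins of equal number, members up to 142 bases away had a median SNE FPKM of 0.116, below the 0.167 of those at 142 to 458 bases, and the farther bins had 0.0915, 0.0681 and 0.0658. Unnamed intergenic loci at 10 to 100 kb (1836 loci) had 0.0518 and those over 100 kb away (914 loci) 0.0347. Chromatin levels moved little over the same steps, with medians of 0.687, 0.595, 0.596 and 0.592 among members, 0.621 at 10 to 100 kb and 0.598 beyond. Only 34 of 174660 tested unnamed loci were under 0.2 FPKM in CPE, so low chromatin levels were hardly listed at any distance. The part of that limit in the even chromatin medians was not tested. The median log2 ratio was accordingly larger at greater distance, from 2.20 within 1 kb through 2.83, 3.01 and 3.19 to 3.59 at 10 to 100 kb and 4.06 over 100 kb. The order over the 3 distance classes was the same within each length class: the short, middle and long classes had medians of 2.65, 2.61 and 2.75 among members, 3.42, 3.52 and 3.74 at 10 to 100 kb, and 3.96, 4.18 and 4.03 beyond. The share called higher in CPE was 52.6%, 43.7%, 46.1% and 44.6% over the 4 steps among members, 49.8% at 10 to 100 kb and 49.9% over 100 kb. Calls in SNE were 62, 4 and 0 in the same order by Cuffdiff, with 2 loci over 100 kb away at an unadjusted p under 0.05, and 45 of the 62 lay within 1 kb. Differences between distance classes are descriptions of loci and were not tested. At the edge of the rule, the 72 members at 9 to 10 kb had a median ratio of 3.44 and the 82 loci at 10 to 11 kb one of 3.19. The 475 members in the 50 bases above the length limit and the 474 loci in the 50 bases below it had medians of 2.66 and 2.65.

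**Figure D3:**
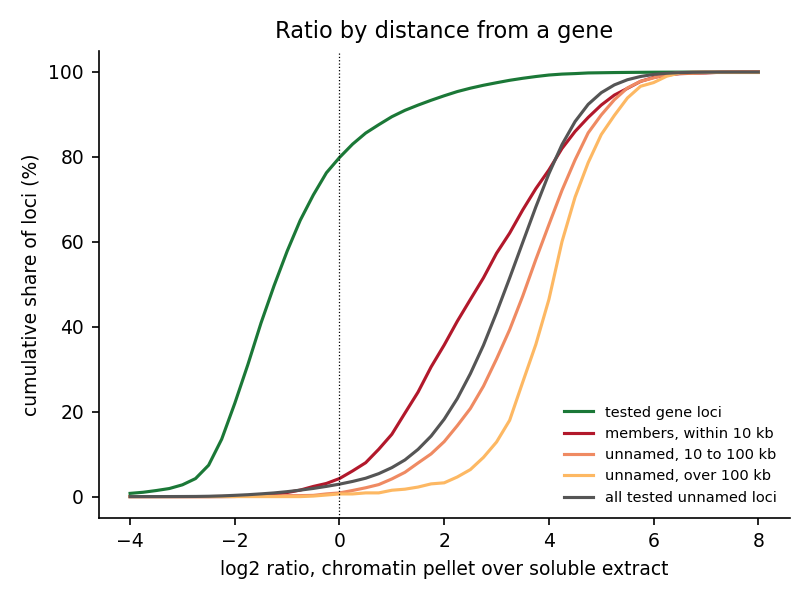
Cumulative share of loci (percent) against the log2 ratio of chromatin pellet over soluble extract, for loci above 0 in both groups. Members (median 2.67) lie left of unnamed loci at 10 to 100 kb (3.59) and over 100 kb (4.06), and all 3 lie far right of tested gene loci (-1.24).

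The side of the gene divided the members further. A side could be given for 1287 members next to 803 gene regions that hold a single gene with a strand in GENCODE 29: 448 members lay on the 5′ side and 839 on the 3′ side. Within 1 kb, the 278 members on the 5′ side had a median SNE FPKM of 0.223 and the 406 on the 3′ side 0.0685. Their median CPE FPKM values were 0.678 and 0.687, and no member on either side was under 0.2 in CPE. The median log2 ratio was 1.60 on the 5′ side (quartiles 0.98 and 2.27) and 3.18 on the 3′ side (quartiles 1.68 and 4.22), a difference of -1.59. With 0.1 added to both values and members at 0 included, the difference was -0.86. The sides lay closer together farther out, with medians of 2.51 and 3.00 at 1 to 2 kb, 2.72 and 3.17 at 2 to 5 kb, and 3.11 and 3.44 at 5 to 10 kb. Over all 10 kb, 9.06% of members on the 3′ side and 2.46% on the 5′ side were listed at 0 in SNE. Shares called higher in CPE within 1 kb were 51.8% and 53.2%, so the calls did not show what the levels did. The difference is a description over loci, since no value per sample exists to test it.

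Genes with members on both sides gave the same picture within a gene. Among 83 such genes, the median ratio of the 5′ members was below that of the 3′ members in 66 and above it in 17. Soluble FPKM was higher on the 5′ side in 63 of the 83, with medians of 0.219 and 0.0691, whereas chromatin FPKM was higher on the 5′ side in 47, with medians of 0.692 and 0.675. FOXC1, a forkhead transcription factor, and EFNA5 are examples chosen after their values were seen. On the 5′ side of FOXC1 (hg19 chr6:1605533-1609172, 1508 bases away) FPKM was 3.15 in SNE and 1.48 in CPE, 2.14-fold higher in SNE (q = 0.000706) per the authors' deposited table. On its 3′ side (hg19 chr6:1615034-1620408, 59 bases away) FPKM was 0.363 in SNE and 5.30 in CPE, 14.6-fold higher in CPE (q = 0.000706) per the authors' deposited table. The 2 flanks of FOXC1 were thus called in opposite directions. Of the 3 members on the 3′ side of EFNA5, those at chr5:106698699-106702696 and chr5:106694802-106696521 rose in CPE over SNE by 18.8-fold (q = 0.000706) and by 14.6-fold (q = 0.0259), respectively, per the authors' deposited table. Their SNE FPKM was very low, at 0.0288 and 0.0285. The third, at chr5:106697144-106697664, had 0.0206 in SNE and 0.530 in CPE without a call (q = 0.454) per the authors' deposited table. On the 5′ side, beyond the member beside the start, a region at chr5:107008330-107010566 held 2 unnamed rows, 1 called in CPE at 1.70-fold (q = 0.0168) and the other without a call (q = 0.343) per the authors' deposited table.

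**Figure D4:**
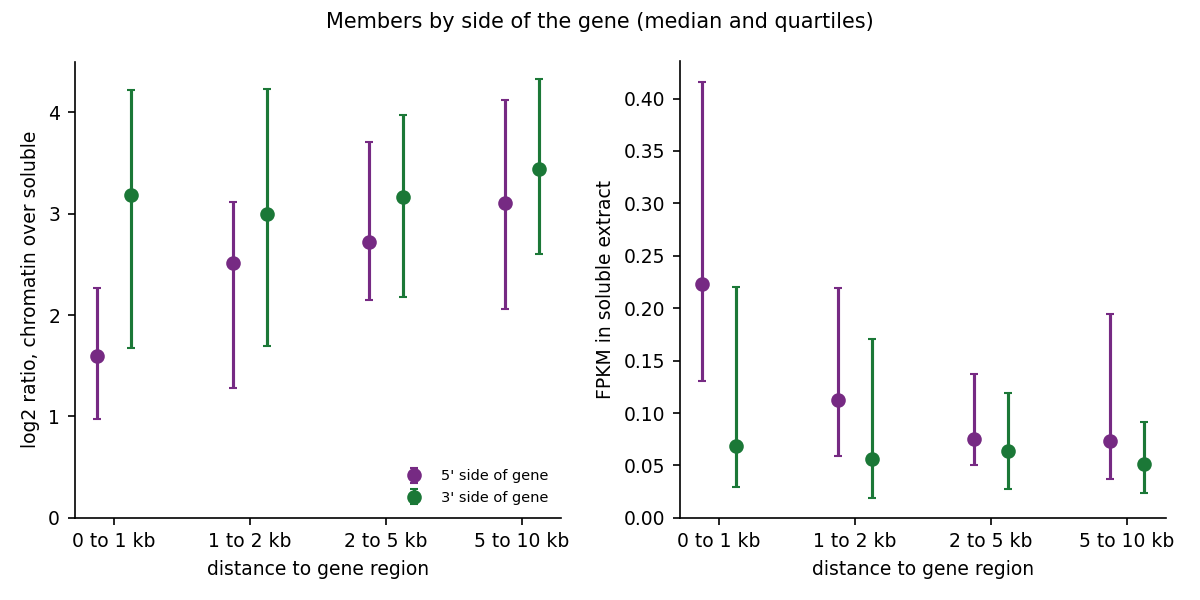
Median log2 ratio of chromatin pellet over soluble extract (left) and median FPKM in the soluble extract (right) of members by distance from the gene region, on the 5′ and the 3′ side; bars are quartiles over members. Within 1 kb the 5′ side has a median ratio of 1.60 and the 3′ side one of 3.18, and the points draw together farther from the gene.

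Promoters of the genes next to members were rich in CG, whichever side the member lay on. A promoter lies at the 5′ end of its gene, so it is not next to a member on the 3′ side. The neighbours with a member within 1 kb on the 5′ side had a median of 31 CG dinucleotides (193 promoters, of 241 such gene regions) and those with one on the 3′ side a median of 28 (294 of 390), against 14 for all promoters. GGGCGG, searched on both strands, was found in 71.5% and 76.2% of them and in 44.6% of all promoters. The TATA motif TATAAA was found in 6.74% and 4.76%, against 11.95%, and CCAAT in 34.7% and 45.2%, against 35.7%, on both strands. The set of all promoters was not limited to genes tested here, whereas every neighbour was a tested gene. Neighbours also had a higher median SNE FPKM than all tested gene loci, 18.4 against 6.22. The part of expression in these differences was not tested. Where the promoter's CG count was above the median of all promoters, the 190 members within 1 kb on the 5′ side had a median SNE FPKM of 0.245 and a median log2 ratio of 1.40. The 21 members beside promoters at or below that median had 0.214 and 2.00.

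Genes next to members were called higher in SNE far more often than in CPE. Counting for each region the tested gene row of highest mean FPKM, 1442 of 2695 neighbours (53.5%) were called higher in SNE, 72 (2.67%) were called higher in CPE and 1181 were not called. Over all tested gene loci 39.3% were called higher in SNE and 1.83% higher in CPE. Neighbours had a median FPKM of 18.4 in SNE and 8.54 in CPE, against 6.22 and 3.17 over all tested gene loci. Regions with 1 tested gene row (1736), where no row had to be chosen, had 13.5 and 5.99, and 939 of them were called higher in SNE. The median log2 ratio of neighbours, -1.31, was close to the -1.24 of all tested gene loci.

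Member and nearest gene were set side by side in calls, ratios and levels, and the levels had little relation. In 1063 pairs (25.1%) the member was called higher in CPE and the gene higher in SNE. Over all pairs 48.9% of members were called in CPE and 52.2% lay beside genes called in SNE. Both were called in CPE in 66 pairs and both in SNE in 35. Cuffdiff called the member in SNE beside a gene called in CPE in 0 pairs. That count was also 0 at an unadjusted p under 0.05 for the member. Only 123 pairs had a gene called in CPE and 1.46% of all members were called in SNE, so few such pairs could arise. Of 3908 pairs above 0 in all 4 values, the member had the larger ratio in 3777 (96.6%), with a median difference of 3.77. This count is a description of loci of which none lay under 0.2 FPKM in CPE and 71.4% did in SNE, a limit that gene loci did not share. Members beside genes called higher in CPE were called in CPE in 53.7% of 123 pairs, against 48.1% of 2210 pairs beside genes called in SNE and 49.6% of 1904 beside genes not called. Across the 4237 pairs, which share libraries and often a neighbour, log2(FPKM + 0.1) of member and gene had a Pearson r of 0.03 in CPE and 0.02 in SNE (Spearman 0.05 and 0.00). On the 5′ side the values were 0.10 in CPE and 0.16 in SNE over 448 pairs, and on the 3′ side 0.02 and -0.12 over 839. In sparse values of this kind such weak relations describe the table and nothing further. By 3 classes of the neighbour's SNE level, divided at 9.33 and 32.1 FPKM, members had median SNE FPKM of 0.0949, 0.0782 and 0.0962 and were called higher in CPE in 48.0%, 49.0% and 49.8% of cases.

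**Figure D5:**
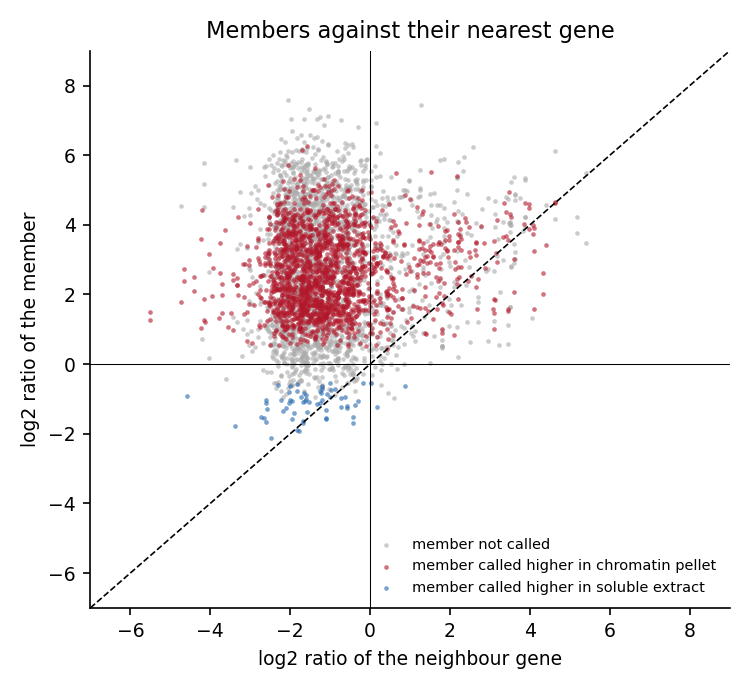
Log2 ratio of each member (vertical) against that of its nearest gene (horizontal), coloured by the call of the member, for pairs above 0 in all 4 values; the dashed line is equality. In 3777 of 3908 pairs the member lies above the line, and most points lie in the upper left, where the member leans to chromatin and the gene to the soluble extract.

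The 8 most abundant members called higher in CPE lay on chromosomes 5, 6 and 17. For these and the members below, the nearest gene gives a position only. The kind of RNA they hold was not determined. The highest was at chr6:26556795-26557381, 9184 bases from HMGN4, a nucleosome-binding protein gene. It reached 21.9 FPKM in SNE and 62.9 in CPE, 2.87-fold higher in CPE (q = 0.000706) per the authors' deposited table. HMGN4 itself had 51.6 and 16.8, without a call (q = 0.388) per the authors' deposited table. A region at chr17:8023116-8023656, 251 bases from HES7, a transcriptional repressor of the segmentation clock, held 2 unnamed rows. The higher had 14.3 in SNE and 32.0 in CPE, 2.24-fold higher in CPE (q = 0.000706), and the other, with 3.83 and 11.2, was not called (q = 0.359) per the authors' deposited table. HES7 itself stood at 0.519 and 0.252, far below both rows.

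The genes beside members of this level ranged from weak to very abundant. At chr17:8090913-8091416, 144 bases from C17orf59, a member had 3.76 in SNE and 18.9 in CPE, 5.02-fold higher in CPE (q = 0.000706) per the authors' deposited table. The member at chr17:80452097-80452668, near NARF, had 3.57 and 12.5, 3.49-fold higher in CPE (q = 0.000706) per the authors' deposited table. Beside HIST1H3PS1, a histone pseudogene at 0.937 in SNE and 1.26 in CPE, members at chr6:26323075-26323702 and chr6:26313011-26313575 rose in CPE by 2.55-fold and by 3.00-fold (both q = 0.000706) per the authors' deposited table. GNB2L1, which encodes the ribosomal scaffold RACK1, shares its row with the small nucleolar RNAs SNORD95 and SNORD96A and stood at 5060 in SNE and 6944 in CPE. Members at chr5:180648533-180649453 and chr5:180644780-180645342, 45 and 4156 bases from its region, rose in CPE by 1.66-fold and by 3.02-fold (both q = 0.000706) per the authors' deposited table. In the same stretch a member at chr5:180633967-180635229 near CTC-338M12.5 was 1.59-fold higher in CPE (q = 0.000706) per the authors' deposited table. Among members at 1 FPKM or more in both groups, the largest ratio with a call was at chr16:3222050-3222777, 8455 bases from AJ003147.8, with 1.22 in SNE and 7.84 in CPE (6.44-fold, q = 0.000706, per the authors' deposited table).

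Of the 62 members called higher in SNE, 35 (56.5%) lay beside genes called higher in SNE and 27 beside genes not called, a share near the 52.2% of all members that lay beside genes called in SNE. By far the most abundant was at chr8:98865821-98866840, 76 bases from the region of LAPTM4B, a lysosomal membrane protein gene. It reached 2184 FPKM in SNE and 497.2 in CPE, 4.39-fold higher in SNE (q = 0.000706) per the authors' deposited table. LAPTM4B had 95.9 and 17.2, 5.56-fold higher in SNE (q = 0.000706) per the authors' deposited table. This member stood far above all others, the next highest in SNE being the one near HMGN4 at 21.9. A second unnamed row of the same region had 0.156 and 0.578 and no call (q = 0.117) per the authors' deposited table. The member beside PTGES3, an Hsp90 co-chaperone gene, had 9.60 and 2.56 (3.75-fold higher in SNE, q = 0.0476, per the authors' deposited table). That beside RARA, the retinoic acid receptor alpha gene, had 4.05 and 1.09 (3.72-fold, q = 0.000706, per the authors' deposited table). Those beside SPPL2A, PTPRJ and C12orf49 were higher in SNE by 3.12-fold, by 2.99-fold and by 2.88-fold, each with a q of 0.000706, per the authors' deposited table. Gene and member had similar log2 ratios at some of these places: -1.77 against -1.91 for PTGES3, -1.82 against -1.89 for RARA and -1.68 against -1.64 for SPPL2A per the authors' deposited table. For C12orf49 they were -2.73 against -1.53 per the authors' deposited table. Of the 62 members called in SNE, 17 were among the 839 on the 3′ side (2.03%), 5 among the 448 on the 5′ side (1.12%) and 40 had no side assigned.

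Members that nearly touched a gene region could still differ from the gene in direction. Those named here were picked among members called higher in CPE, so their own direction was fixed by the choice. The members 9 bases from ARMC10, 28 bases from UBE2Q1, a ubiquitin-conjugating enzyme gene, and 34 bases from the kinase gene MST4 rose in CPE by 3.26-fold, by 2.26-fold (both q = 0.000706) and by 3.52-fold (q = 0.00567), respectively, per the authors' deposited table. UBE2Q1 and MST4 themselves were higher in SNE, by 3.37-fold and by 4.22-fold (both q = 0.000706), per the authors' deposited table. ARMC10, at 9.35 in SNE and 1.61 in CPE, was not called (q = 0.0787) per the authors' deposited table. CKB, the brain creatine kinase gene, stood at 1909 in SNE and 507.6 in CPE. A member 465 bases away (chr14:103978756-103981131) was 6.47-fold higher in CPE (q = 0.000706) per the authors' deposited table. SNHG7 and RPLP2 were themselves called higher in CPE (both q = 0.000706) per the authors' deposited table. The row of RPLP2 also holds the small nucleolar RNA SNORA52. Members 808 and 204 bases from these genes likewise rose in CPE, by 2.99-fold (q = 0.000706) and by 5.64-fold (q = 0.0184), respectively, per the authors' deposited table.

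A gene could carry many members. Of 2695 neighbours, 949 had 2 or more, 356 had 3 or more and 258 had members on both sides. RANP6, a processed pseudogene of the transport GTPase gene RAN, had 18, all rows of a single region (chr4:174555730-174660752). That region is 105023 bases long and only its edge lies 207 bases away, so its rows need not lie within 10 kb of RANP6. Of the 18 rows 7 were called higher in CPE and 11 were not called. ZBTB20, a zinc finger repressor gene, had 9 members in 9 regions between 695 and 9502 bases away. Their SNE FPKM ran from 0.116 to 0.653 and their CPE FPKM from 0.395 to 0.942, and 3 were called higher in CPE. The 9 members near KATNAL1, a katanin-like microtubule-severing enzyme gene, ran from 0 to 0.107 in SNE and from 0.469 to 1.05 in CPE, with 3 called in CPE. Those near AC118345.1 (9 members) and CDH2, the N-cadherin gene (7 members), had 1 and 3 called in CPE, and none of the members of these 5 neighbours was called in SNE. Members of 1 neighbour share its surroundings and are not independent of each other.

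Neighbours from 8 lists of gene classes were described by the members beside them. The lists were chosen with earlier results of these data known. Beside 14 developmental transcription factor genes lay 28 members, of which 16 were called higher in CPE, 1 was called higher in SNE and 11 were not called (median log2 ratio 2.09, against 2.67 for all members). The 57.1% called in CPE stands near the 48.9% of all members. The genes leaned the other way, with a median of -2.07 and 11 of 14 called in SNE, where 39.3% of all tested gene loci were called. The member of this list with the highest CPE FPKM was the one on the 3′ side of FOXC1, described above. Beside 6 immediate early and growth genes lay 7 members (median 2.20, gene median -1.63). Of these 5 (71.4%, against 48.9% of all members) were called in CPE and 2 were not called, too few for the share to carry weight. The member beside ID4, an inhibitor of helix-loop-helix factors, had 0.0348 in SNE and 1.12 in CPE, 32.3-fold higher in CPE (q = 0.0234) per the authors' deposited table. That fold rests on a very low SNE value. The member beside JUND, an AP-1 subunit gene, rose in CPE by 2.09-fold (q = 0.00616) per the authors' deposited table.

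Zinc finger genes had members with the lowest median ratio of the 8 lists. Beside 70 such genes lay 99 members, 57 (57.6%, near the 48.9% of all members) called in CPE, 2 called in SNE and 40 not called, with a median log2 ratio of 1.72 and a median SNE FPKM of 0.173. The genes had a median ratio of -0.91, 28 being called in SNE, 1 in CPE and 41 not called. The member beside ZNF398 was 2.09-fold higher in CPE (q = 0.000706), and that beside ZNF224, at 3.43 in SNE and 2.34 in CPE, was called in SNE at a log2 ratio of -0.55 (q = 0.00853) per the authors' deposited table. ZNF224 itself had 35.9 and 36.8, without a call (q = 0.848) per the authors' deposited table. Regions naming a long non-coding RNA or microRNA gene had the highest median, 2.93, over 91 members beside 65 of them. Of these members 52 (57.1%, near the 48.9% of all members) were called in CPE, 1 in SNE and 38 not called. Of those 65 neighbours 15 were called in SNE, 5 in CPE and 45 not called (median -0.54). Beside the gene calls of both lists stand 39.3% of all tested gene loci called in SNE and 1.83% in CPE. The member near ARF1 and MIR3620, at chr1:228260615-228270236, had 0.223 in SNE and 2.42 in CPE (10.8-fold, q = 0.000706, per the authors' deposited table).

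Members beside genes of translation, respiration, histones and RNA processing had medians between 2.33 and 2.82. Their shares called in CPE, 45.7%, 45.6%, 52.9% and 47.8% in that order, were all near the 48.9% of all members, and the genes' calls stand against 39.3% of all tested gene loci called in SNE. Beside 50 genes of the translation list, those with symbols beginning RPL, RPS, EIF or EEF, lay 70 members. Of the members 32 were called in CPE and 38 were not called (median 2.82). Of the genes 39 were called in SNE, 2 in CPE and 9 not called (gene median -1.96). By its rule the list takes in pseudogenes, such as RPL27AP, and other genes of like name, such as RPS6KC1. The member beside RPL8, at 1.63 in SNE and 1.84 in CPE, was not called (q = 0.567), and that beside the pseudogene RPL27AP was 2.84-fold higher in CPE (q = 0.000706) per the authors' deposited table. Beside 39 respiratory and mitochondrial genes lay 57 members, 26 called in CPE and 31 not called (median 2.33), with 35 of the genes called in SNE (gene median -2.08). Both members beside MRPL14, a mitochondrial ribosomal protein gene, rose in CPE, by 3.77-fold (q = 0.00517) and by 3.15-fold (q = 0.000706), per the authors' deposited table. Beside 9 histone genes lay 17 members, 9 called in CPE and 8 not called (median 2.68), with 7 of the genes called in SNE (gene median -2.22). Beside 32 RNA processing genes lay 46 members, 22 called in CPE and 24 not called (median 2.48), with 26 of the genes called in SNE (gene median -1.44). The member beside DDX3X, an RNA helicase gene, was 4.18-fold higher in CPE (q = 0.00134) per the authors' deposited table. That beside the helicase gene DDX5, which shares its row with 2 microRNA genes, had 0.106 in SNE and 1.35 in CPE, without a call (q = 0.227) per the authors' deposited table. Among members not called, the highest after the second row near HES7 lay beside PPM1D, a phosphatase gene, with 5.61 and 7.60 FPKM (q = 0.566), and NIPBL, the cohesin loader gene, with 4.81 and 5.49 (q = 0.348) per the authors' deposited table.

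The labelled line and fractions were checked on named genes of the same table. VIM, KRT8, CDH2 and LIN28B, markers of HEK293, had SNE FPKM of 173.0, 86.9, 40.0 and 32.3, whereas the kidney factor genes PAX2 and LHX1 were low, at 0.303 and 0.750. Of markers of other cell types, HBB and CD3E were listed at 0 in both fractions, PTPRC at 0 in SNE and 0.00306 in CPE, GFAP at 0.298 and 0.0748, and ALB at 0 and 0.373. NEAT1, a chromatin-bound RNA, was 10.8-fold higher in CPE, and GAPDH was 5.06-fold higher in SNE (q = 0.000706 for both) per the authors' deposited table.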

How the data were processed

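RNA of HEK293 nuclei was sequenced as stranded total RNA libraries, 3 labelled SNE and 3 labelled CPE. Reads were processed with TopHat2 and Cuffdiff with hg19, according to the submitters' processing notes. Their versions, settings, annotation and library scaling are not given in the sources used here. In the deposited gene table there are 241080 loci with 1 FPKM per group computed by the authors. The authors' Cuffdiff log2 ratio (CPE over SNE), p-value and q-value stand beside it, and the smallest q of 0.000706 is shared by 1025 members and does not rank them. The call at q of at most 0.05 matched the deposited significance column with 0 exceptions. An isoform table was not used, because its values do not match the identifiers beside them.

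Unnamed loci (identifiers beginning CLOC) were placed beside the nearest region holding a tested gene row (XLOC). Regions are bundles of loci, with starts printed from 1, and 2 members touched a gene region. A gene row of another status was nearer for 285 members. The neighbour was the tested gene row of highest mean FPKM in its region. A further 42 unnamed intergenic loci had no tested gene region on their sequence. The search was tested on simulated regions. Strand and type came from GENCODE 29 by symbol or older symbol, for 838 of 1012 single-gene neighbours (82.8%). A side was used only where the gene kept its order between the flanking genes on both builds, which left out 56 of 1343 pairs. Promoters came from RefSeq. Nothing was tested beyond the authors' Cuffdiff; medians, counts and correlations are descriptions. Python 3.11.15, numpy 2.4.6, pandas 2.3.3, scipy 1.17.1 and matplotlib 3.10.9 were used.

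Members, lists and tests were chosen with earlier results of these data known. Named members were the 8 of highest CPE FPKM called in CPE; the 6 largest and 6 smallest ratios called at 1 FPKM or more in each group; and the 4 called in CPE nearest a gene at CPE FPKM of at least 1. Also named were those of the 5 neighbours with most members, the 5 called in CPE beside the most abundant neighbours, the 2 highest of each list and the 3 most abundant not called; 2 of these members are not reported here. The sides of genes and the promoters were added after seeing the data. Alternatives covered the q, FPKM, ratio, distance and length limits, pseudocounts, centring and shared regions.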

Additional observations from a re-analysis of the deposited data

How the results depend on the processing

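Of 43 alternatives, 19 gave about the same value, 23 moved it and 1 reversed its sign. Many of the values are counts, which cannot change sign, so for them only the size can be compared. The 2073 members called higher in CPE became 370 with 1 FPKM or more in either group and 1270 in regions over 1000 bases, both of which hold fewer members. The 62 called in SNE became 38 at an absolute log2 ratio of at least 1 and 32 in regions over 1000 bases. At q of at most 0.01 the counts were 1397 and 48, and without members listed at 0 in SNE 1818 stayed called in CPE.

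The median log2 ratio of 2.67 was 1.90 with a pseudocount of 0.1 and 0.55 with 1 over all members, 0.035 with 1 FPKM or more in each group, and 3.91 centred on gene loci. Centring on all tested loci, chosen after seeing the data, reversed it to -0.37. It was 2.54 and 2.78 with limits of 5 and 20 kb and 2.77 over 1000 bases. Neighbours called in SNE fell from 1442 to 939 in regions with 1 tested gene row, of which there are fewer. The 1063 opposite pairs fell to 583 at q of at most 0.01 and 702 in such regions. The correlation of levels in CPE, 0.03, was 0.043 in such regions and 0.12 at 1 FPKM or more. The nearest bin exceeded the farthest in share called by 7.94 percentage points, and by 13.7 with 5 bins of equal number.

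The difference of -1.59 between sides within 1 kb, and its alternatives, were added after seeing the data. It was -1.51 without the order check, -1.65 for protein-coding neighbours, -0.86 with a pseudocount of 0.1, -1.71 with 1 member per neighbour in regions of 1 row, -1.22 up to 10 kb and -1.32 over 1000 bases. Where no cause is given, the cause was not tested.

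No paired analysis was possible because the table holds 1 value per group, which also left no replicate to leave out. Read depth is unknown, and 71.4% of members lay under an SNE FPKM of 0.2.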
